A study of Homo sapiens with 6 samples.

Results

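Expressed long non-coding RNAs of OE33 cells, a human cell line derived from an esophageal adenocarcinoma, were the 189 genes annotated as lincRNA, antisense, processed transcript, sense intronic or sense overlapping whose raw counts averaged at least 4 CPM (counts scaled by the library total) over the 6 libraries. They were taken from 58735 genes in the table, of which 14886 carried one of the 5 annotations and 5438 of those had at least 1 count. They were chosen by annotation and by their mean level over all 6 libraries, so their levels are given as a description with no test. The change between the groups was not part of the rule. The mean takes in both groups, however, so an RNA near the minimum could enter through its higher group alone. The RNAs just inside the minimum were *LINC00997* at 4.01 CPM, *LINC01106* at 4.02 CPM and *AC144652.1* at 4.03 CPM, and those just under it were *AC019069.1* at 3.99 CPM, *LINC01748* at 3.98 CPM and *GABPB1-AS1* at 3.93 CPM.

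Long non-coding RNAs are transcripts that do not code for a known protein. Some organise nuclear bodies, some bind proteins or small RNAs in the cytoplasm, some are precursors of small nucleolar RNAs (snoRNAs, which guide the modification of ribosomal RNA) or of microRNAs, and for many no function is known. Many start beside the promoter of a protein-coding gene, and several are known for high levels in carcinomas of the gut.

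Polyadenylated RNA was sequenced from 3 control and 3 treated libraries, which the labels describe as separate biological replicates of 1 cell line. The treated cells (ABS) received acidified bile salts at 200 µM in unsupplemented medium of pH 4.0 for 20 min, as a model of acute reflux, and then recovered for 6 h in complete medium. The controls were untreated OE33 cells. Both groups were grown in RPMI medium with serum and antibiotics, and no group here had acid alone, bile salts alone or a medium change alone, so the parts of the treatment cannot be told apart.

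The libraries held between 22145676 and 25235686 counts, so that 3 counts correspond to between 0.119 and 0.135 CPM. The 6 epithelial markers (*EPCAM*, *CDH1*, *KRT8*, *KRT18*, *KRT19*, *CLDN4*) were all found and summed to between 18341 and 20986 CPM in the controls and between 19158 and 20426 CPM after ABS. The 6 fibroblast markers summed to at most 4.02 CPM and the 6 immune markers to at most 9.96 CPM in any library, with *COL1A2*, *THY1*, *DCN*, *PTPRC* and *CD3E* at 0. Both replicate 3 libraries stood apart from the other 4 for many genes, so values from replicates 1 and 2 and from the replicate 3 libraries are given separately beside the results they touch.

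1 of the 189 RNAs changed after ABS: *LINC00511*, a long intergenic transcript known from several carcinomas, rose 1.74-fold. That is 0.529% of the RNAs, beside 0.436% of all 13768 tested genes (60 genes) in edgeR's quasi-likelihood test at a Benjamini-Hochberg adjusted p under 0.05. Higher calls made up 0.37% and lower calls 0.0654% of all tested genes, 51 and 9 genes. The other 188 RNAs did not pass, among them *H19*, *NORAD*, *MALAT1*, *NEAT1* and the snoRNA host genes. *LINC01269* and *NKILA* did not pass either, but had the largest positive and the largest negative difference among RNAs whose groups do not overlap. For *LINC01269* that difference carries a limit of selection given below. The sequences upstream of *LINC00511*, *LINC01269* and *NKILA* are shown here. Each runs from 250 bases before to 50 bases after the RefSeq start (build GRCh38.p14), 5′ to 3′ on the gene's strand. Capitals mark the core of the xenobiotic response element bound by the aryl hydrocarbon receptor (GCGTG) and the core of the metal response element (TGCACNC or TGCGCNC), searched on both strands.
LINC00511, chr17:72640423-72640722, minus strand: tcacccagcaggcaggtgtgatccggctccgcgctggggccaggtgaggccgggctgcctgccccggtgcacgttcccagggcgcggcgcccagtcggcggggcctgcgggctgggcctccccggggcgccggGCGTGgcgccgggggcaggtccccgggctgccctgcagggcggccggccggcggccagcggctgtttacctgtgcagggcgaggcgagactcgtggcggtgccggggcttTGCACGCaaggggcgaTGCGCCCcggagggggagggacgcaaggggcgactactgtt
LINC01269, chr14:70698448-70698747, plus strand: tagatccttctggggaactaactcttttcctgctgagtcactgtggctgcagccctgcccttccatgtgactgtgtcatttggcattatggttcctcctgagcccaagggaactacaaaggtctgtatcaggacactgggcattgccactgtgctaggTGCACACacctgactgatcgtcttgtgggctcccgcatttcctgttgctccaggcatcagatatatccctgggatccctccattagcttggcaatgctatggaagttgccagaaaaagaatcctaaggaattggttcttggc
NKILA, chr20:57709933-57710232, plus strand: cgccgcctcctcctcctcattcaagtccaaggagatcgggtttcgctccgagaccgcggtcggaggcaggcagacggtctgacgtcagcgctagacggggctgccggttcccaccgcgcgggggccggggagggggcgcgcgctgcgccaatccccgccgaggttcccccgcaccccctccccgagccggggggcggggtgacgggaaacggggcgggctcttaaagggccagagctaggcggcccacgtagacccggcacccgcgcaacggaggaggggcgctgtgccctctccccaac

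The *LINC00511* window held 2 xenobiotic cores and 2 metal cores, and 1 of the xenobiotic cores lies inside a metal core on the other strand. It had 35 CpG dinucleotides, *NKILA* had 37 and *LINC01269* had 2. *NKILA* held neither core in this window, and *LINC01269* held 1 metal core and 1 match to the antioxidant response element core (TGACNNNGC), which is left in lower case. Promoters were in the RefSeq table for 118 of the 189 RNAs, but the RefSeq start lay within 1000 bp of the start of the counted gene for only 100 of them and up to 284876 bp away for the rest. The xenobiotic core occurred in 49.2% of the 118 (53 of the 100), beside 36.5% of all 35116 promoters of this length, and the metal core in 41.5% (44 of the 100) beside 29.6%. The antioxidant core occurred in 16.9% (16 of the 100) beside 13.3%, and an NF-kB site in 13.6% (14 of the 100) beside 11.3%. The promoters of the RNAs had a median of 24 CpG dinucleotides (27 for the 100), and all promoters had a median of 14. A match is a description of letters, and binding was not measured.

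*LINC00511* (ENSG00000227036, chr17:72290091-72640472 in GRCh38, minus strand, annotated as a processed transcript) was the only RNA that passed the test. Its normalised level was 49.0, 56.8 and 49.7 CPM in the controls and 95.1, 91.6 and 84.5 CPM after ABS. All 3 ABS libraries lay above all 3 controls, with a wide gap between the groups. The mean went from 51.8 ± 4.34 to 90.4 ± 5.39 CPM (SD, n = 3 each), a log2 fold change of 0.80 ± 0.09 (SE, edgeR adjusted p = 0.000974). The difference was 0.82 in replicates 1 and 2 and 0.77 in the replicate 3 libraries, so it did not rest on either set. Only 0.127% of its exonic bases are shared with another annotated gene. Per kilobase of its 27605 exonic bases it reached 1.88 CPM in the controls, the rank of 128 among the 189 RNAs.

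**Figure D1:**
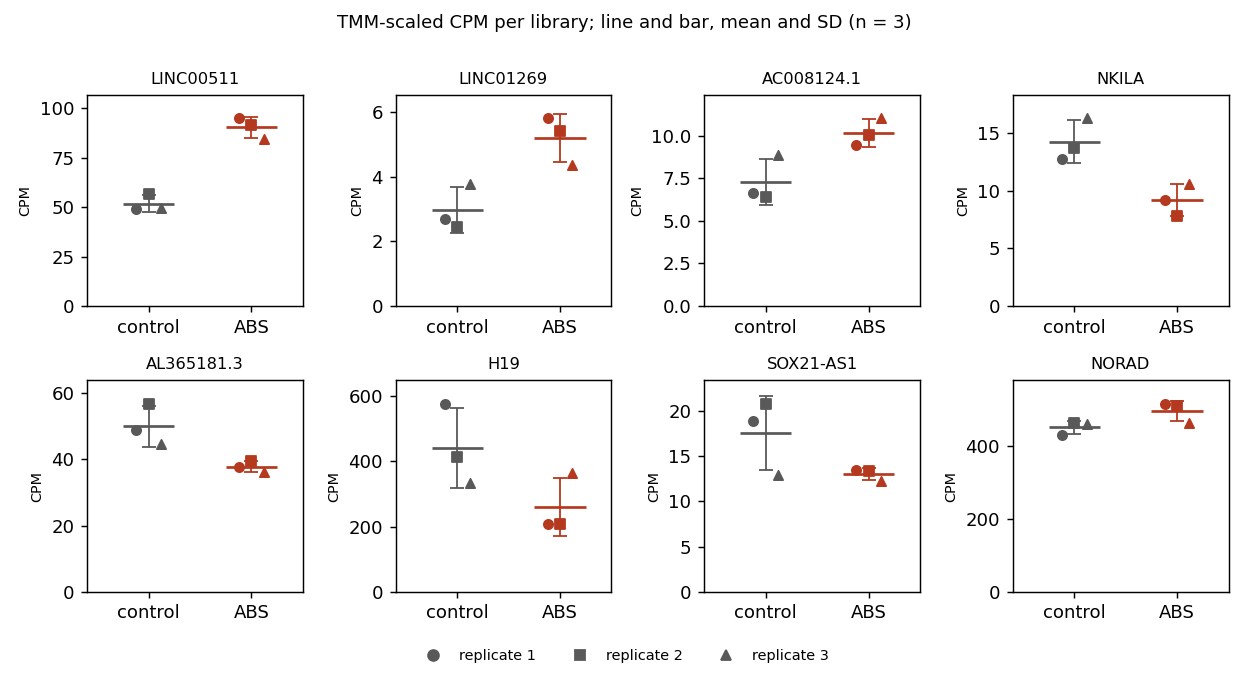
Normalised level (CPM, axes from 0) of 8 long non-coding RNAs in each library; symbols mark the replicate, lines and bars the mean and SD of 3 libraries. *LINC00511* is between 84.5 and 95.1 CPM in the ABS libraries and at most 56.8 CPM in the controls, whereas the replicate 3 libraries of *H19* lie in the order opposite to the others.

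*LINC00511* lies on the long arm of chromosome 17 between 2 protein-coding genes. Its nearest protein-coding neighbour, by start and by gene body, was *SLC39A11*, which encodes a zinc transporter. The gap between their bodies was 5476 bp and the starts lie 452240 bp apart. *SLC39A11* had 31.6 ± 1.60 CPM in the controls and 30.0 ± 1.66 CPM after ABS, a log2 difference of -0.07 (edgeR adjusted p = 0.871).

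*SOX9*, a transcription factor of columnar and progenitor epithelium, lies on the other side, with 163670 bp between the gene bodies and 519452 bp between the starts. It had 177, 177 and 179 CPM in the controls and 108, 110 and 90.0 CPM after ABS. Every ABS library was below every control. The mean went from 178 ± 1.15 to 102 ± 10.9 CPM, and *SOX9* fell by 0.79 ± 0.08 on the log2 scale (SE, edgeR adjusted p = 0.000933), by 0.70 in replicates 1 and 2 and by 0.99 in the replicate 3 libraries. *LINC00511* and *SOX9* thus changed in opposite directions, with log2 changes of 0.80 and -0.79 from the same 6 libraries.

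No other tested gene of the neighbourhood passed the test. *AC080037.1*, a long non-coding RNA that starts between *LINC00511* and *SLC39A11*, had 0.966 ± 0.628 CPM in the controls and 1.23 ± 0.343 CPM after ABS (log2 0.33, edgeR adjusted p = 0.898). *SOX9-AS1*, on the strand opposite *SOX9*, had 15 counts over the controls and 24 over the ABS libraries, too few to be tested. *ROCR*, another RNA near *SOX9*, had 0 counts in all libraries. *AC025198.1*, a processed pseudogene within *SLC39A11*, had 54 counts over the controls and 18 over the ABS libraries, with the groups apart and the largest estimate of the region (log2 -1.65 ± 0.57 SE, adjusted p = 0.305). Beyond *SLC39A11*, the differences were -0.12 for *COG1*, -0.04 for *FAM104A*, -0.04 for *C17orf80* and -0.19 for *CDC42EP4* on the log2 scale, with adjusted p between 0.623 and 0.952.

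**Figure D2:**
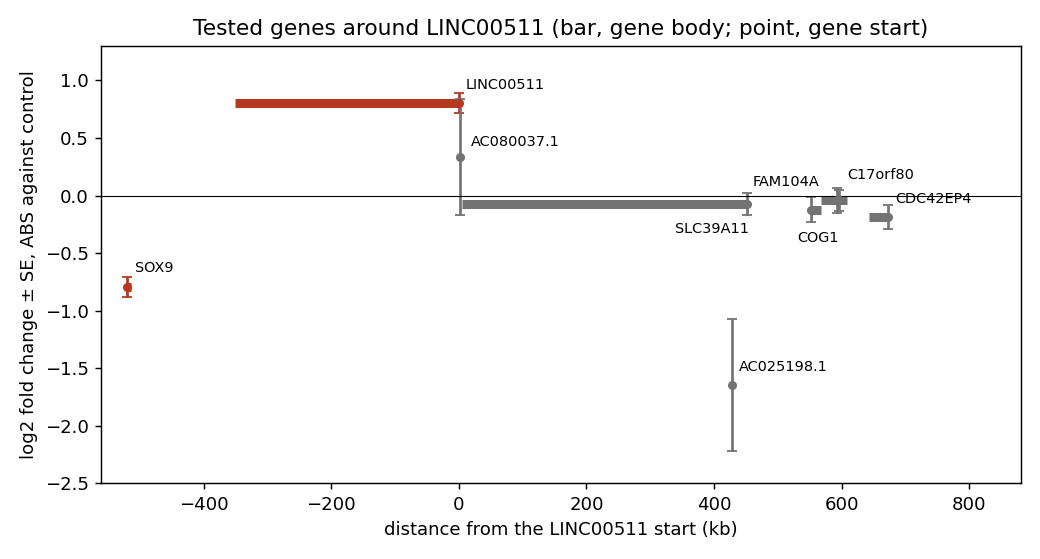
Log2 fold change (ABS against control, ± SE) of the tested genes around *LINC00511*, placed by distance in kb from its start along the chromosome; bars are gene bodies, points are gene starts and red marks genes that passed the test. *LINC00511* (0.80) and *SOX9* (-0.79) lie on opposite sides of 0, *SLC39A11*, which borders *LINC00511*, is at -0.07, and the pseudogene *AC025198.1* at -1.65 has a wide error and did not pass.

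At baseline most of the RNAs were modestly expressed and a few were abundant. The median over the 6 libraries was 7.77 CPM, in a range from 4.01 to 475 CPM. 74 RNAs reached 10 CPM, 38 reached 20, 13 reached 50 and 6 reached 100 CPM. By annotation there were 80 antisense RNAs (median 6.85 CPM), 69 lincRNAs (9.53 CPM), 25 processed transcripts (19.4 CPM), 8 sense intronic (5.23 CPM) and 7 sense overlapping RNAs (6.28 CPM). Per kilobase of exons, the control median was 2.93 CPM, beside 7.49 CPM per kb for the 9994 protein-coding genes with the same minimum level, and 41 of the 189 RNAs lay above that protein-coding median.

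**Figure D3:**
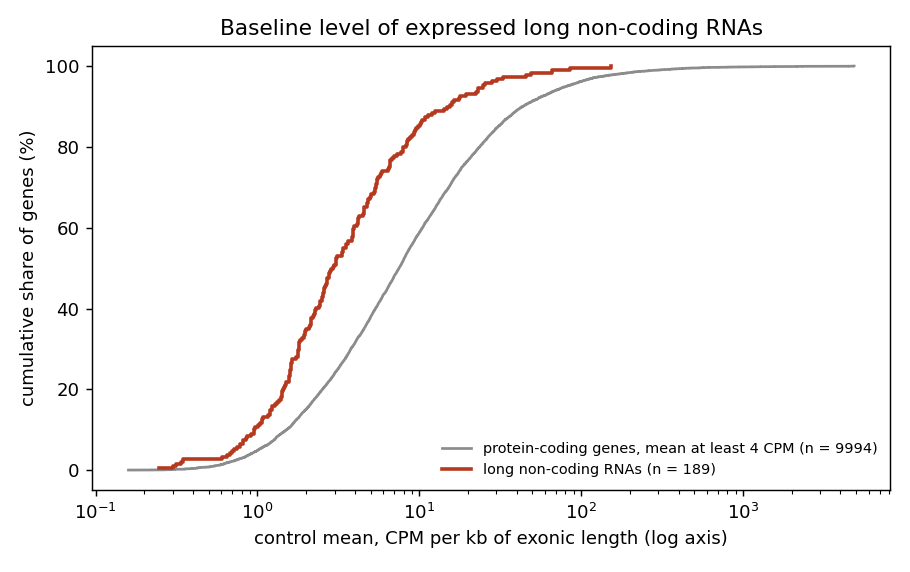
Cumulative share of genes by their control mean (CPM per kb of exonic length, log axis) for the 189 long non-coding RNAs and for 9994 protein-coding genes of at least 4 CPM. The curve of the long non-coding RNAs lies to the left, with a median of 2.93 CPM per kb against 7.49.

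The highest levels per kilobase belonged to *H19*, an imprinted RNA of the fetal and tumor transcriptome, with 152 CPM per kb in the controls, and to *NORAD*, a cytoplasmic RNA that binds Pumilio proteins, with 84.8 CPM per kb. They were followed by the less studied RNAs *AC006329.1* at 66.2, *AC125257.1* at 48.7, *AC005288.1* at 45.9 and *LINC00973* at 33.0 CPM per kb. The snoRNA hosts *LRRC75A-AS1* at 30.4, *GAS5* at 28.1 and *SNHG6* at 24.9 CPM per kb completed the 10 highest together with *AC099850.3* at 25.6. For *AC099850.3*, 30.2% of exonic bases are shared with exons of another gene, and for *SNHG6* 36.4%. The strand setting of the counting is not given in the sources used here, so reads from such shared bases cannot be assigned to one partner.

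Of these 10, none passed the test between the groups. *AC006329.1* had 45.7, 42.4 and 52.0 CPM in the controls and 56.4, 56.8 and 49.5 CPM after ABS (log2 0.22, edgeR adjusted p = 0.503). Its groups overlap through both replicate 3 libraries. The log2 differences of *AC125257.1*, *AC005288.1*, *LINC00973*, *LRRC75A-AS1*, *GAS5*, *AC099850.3* and *SNHG6* were 0.02, 0.07, 0.06, 0.02, -0.06, 0.05 and -0.12.

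The 189 RNAs together took 0.401, 0.393 and 0.405% of all counts in the controls and 0.373, 0.367 and 0.409% after ABS. The means were 0.399 ± 0.00632% and 0.383 ± 0.0226% (SD, n = 3 each), a difference that did not pass (exact permutation test, two-sided, p = 0.4, where 3 against 3 libraries cannot go below 0.1). Replicates 1 and 2 were lower after ABS and replicate 3 was not. Without *NORAD* and *H19*, the shares were 0.310 ± 0.0123% and 0.307 ± 0.0143% (exact permutation p = 0.7). In whole cultures, fewer cells that express an RNA and less of it per cell cannot be told apart.

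Across the RNAs the changes were small and centred near 0. 92 had a positive and 97 a negative log2 fold change, with a median of -0.01, beside -0.00 over all tested genes. For 183 RNAs (96.8%) the estimate was below 1.5-fold either way, beside 93.8% of all tested genes and 98.6% of protein-coding genes with at least 4 CPM. The 6 RNAs at or above 1.5-fold were *LINC01269*, *LINC00511* and *AC015712.2* on the higher side and *H19*, *BAIAP2-DT* and *NKILA* on the lower side. The standard error had a median of 0.17 and reached 0.30 on the log2 scale.

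**Figure D4:**
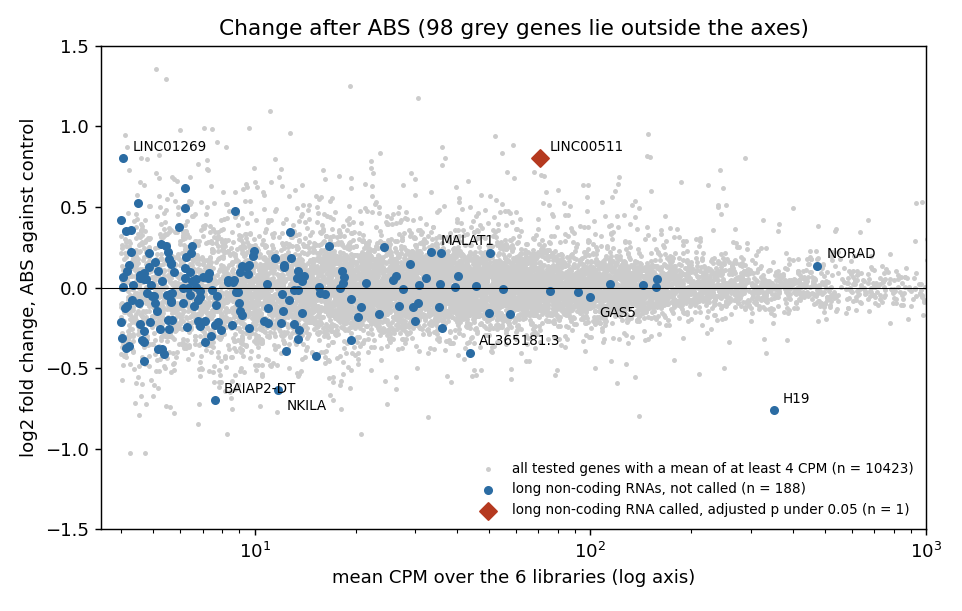
Log2 fold change after ABS against the mean level over 6 libraries (CPM, log axis) for all 10423 tested genes of at least 4 CPM in grey, with the 188 long non-coding RNAs that did not pass in blue and *LINC00511* in red. Most blue points lie within the grey band, and *H19* at -0.76 lies low at a high level without passing the test.

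For 22 RNAs the 3 ABS values did not overlap the 3 control values, 10 higher and 12 lower. That is 11.6% of the RNAs, beside 14.5% of all tested genes, so the share is no higher than the background. At an unadjusted p under 0.05 there were 16 RNAs (6 higher, 10 lower), 8.47% beside 9.75%. Among the 22, those with the largest positive differences were *LINC01269*, *LINC00511*, *AC008124.1*, *LINC01106* and *LINC00467*, and those with the largest negative ones were *NKILA*, *GABPB1-IT1*, *AL365181.3*, *FAM111A-DT* and *LINC00963*.

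*LINC01269* (ENSG00000258689, chr14:70698698-70712153, plus strand) had 2.68, 2.46 and 3.76 CPM in the controls and 5.81, 5.42 and 4.36 CPM after ABS. The groups did not overlap, and the replicate 3 libraries were the closest to each other. The log2 difference was 0.80 ± 0.23 (SE, edgeR adjusted p = 0.194), 1.13 in replicates 1 and 2 and 0.21 in the replicate 3 libraries. All 3 controls were below the minimum of 4 CPM, so *LINC01269* is among the 189 only through its ABS libraries. That choice favours a positive difference. Every control was below the minimum for 3 RNAs, *LINC01106* included, and the control mean was below it for 7. For 6 RNAs the ABS mean was below it, which favours a negative difference. *LINC01269* passed in 3 of the 14 alternatives, among them the fit without control replicate 3 (edgeR adjusted p = 0.0489), with the same limit. Without control replicate 2 its adjusted p was 0.696 (edgeR). Its nearest protein-coding gene, *TTC9*, which starts 56911 bp upstream on the same strand, had 55.7, 64.3 and 70.8 CPM in the controls and 104, 98.1 and 88.8 CPM after ABS. *TTC9* rose by 0.61 ± 0.10 on the log2 scale (edgeR adjusted p = 0.0189) and was the only nearest neighbour of the 189 RNAs that passed. That call held in 2 of the 6 fits with 1 library left out, where its adjusted p reached 0.198.

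*NKILA* (ENSG00000278709, chr20:57710183-57712780, plus strand), an RNA described as binding the complex of NF-kB with its inhibitor, had 12.7, 13.7 and 16.3 CPM in the controls and 9.16, 7.78 and 10.6 CPM after ABS. All ABS libraries were below all controls. The mean went from 14.3 ± 1.85 to 9.17 ± 1.39 CPM, a log2 difference of -0.64 ± 0.15 that did not pass (edgeR adjusted p = 0.109). It was -0.64 in replicates 1 and 2 and -0.63 in the replicate 3 libraries. It passed in 6 of the 14 alternatives, among them DESeq2 (adjusted p = 0.0351) and the fit without ABS replicate 3 (edgeR adjusted p = 0.0371). The adjusted p was 0.121 with limma-voom and 0.411 without ABS replicate 2 (edgeR). *NKILA* overlaps the start of *PMEPA1*, a TGF-beta target on the other strand with 1134 ± 115 CPM in the controls and 996 ± 64.8 CPM after ABS (log2 -0.19, adjusted p = 0.497). Of the exonic bases of *NKILA*, 13.2% lie in exons of other genes, and its level was far below that of *PMEPA1*.

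*AL365181.3* (ENSG00000272405, chr1:156641666-156644887, minus strand), an RNA antisense to the proteoglycan gene *BCAN*, had 48.8, 56.8 and 44.5 CPM in the controls and 37.7, 39.4 and 36.3 CPM after ABS. The groups were apart, and the ABS libraries were closer together than the controls. The log2 difference was -0.40 ± 0.10 (SE, edgeR adjusted p = 0.114), -0.45 in replicates 1 and 2 and -0.30 in the replicate 3 libraries. It passed in 6 of the 14 alternatives, among them DESeq2 (adjusted p = 0.0362) and the fit without control replicate 3 (edgeR adjusted p = 0.0171). The adjusted p was 0.129 with limma-voom and 0.580 without control replicate 2 (edgeR). *BCAN* itself, with 6.10 ± 0.987 CPM in the controls, differed by -0.04 (adjusted p = 0.971).

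*AC008124.1*, which starts 1890 bp from the chromatin remodelling gene *ARID2* in the opposite direction, had 6.63, 6.37 and 8.85 CPM in the controls and 9.44, 10.0 and 11.0 CPM after ABS. The groups were apart by a small margin. The log2 difference was 0.48 ± 0.17 (SE, edgeR adjusted p = 0.304), and *ARID2* differed by -0.05 (adjusted p = 0.952). *LINC01106* had 3.43 ± 0.384 CPM in the controls and 4.59 ± 0.768 CPM after ABS, a log2 difference of 0.42 (adjusted p = 0.578). *LINC00467* had 5.23, 5.55 and 4.80 CPM in the controls and 6.90, 6.47 and 6.83 CPM after ABS, a difference of 0.38 (adjusted p = 0.490), while its neighbour *TRAF5* differed by -0.23 (adjusted p = 0.775).

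*GABPB1-IT1*, which lies within *GABPB1* on the same strand, had 5.19, 5.32 and 5.71 CPM in the controls and 3.55, 3.94 and 4.36 CPM after ABS. Its log2 difference was -0.45 (edgeR adjusted p = 0.448), whereas that of *GABPB1*, a subunit of an ETS-family transcription factor, was 0.30 (adjusted p = 0.225). Both pairs of groups were apart, in opposite directions, and neither gene passed. The ABS mean of *GABPB1-IT1* was below the minimum of 4 CPM, whereas every control was above it. *GABPB1-IT1* thus reached the minimum through its control libraries, and that choice favours a negative difference. *FAM111A-DT*, which starts 267 bp from *FAM111A* on the opposite strand, had 6.25, 6.42 and 5.38 CPM in the controls and 4.62 ± 0.436 CPM after ABS (log2 -0.38, adjusted p = 0.544), and *FAM111A* differed by 0.11. *LINC00963* had 23.8, 21.8 and 19.1 CPM in the controls and 15.9, 17.4 and 18.3 CPM after ABS (log2 -0.33, adjusted p = 0.335), with -0.45 in replicates 1 and 2 and -0.06 in the replicate 3 libraries.

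The difference of *H19* turned with the replicate. *H19* (ENSG00000130600, chr11:1995176-2001470, minus strand) had 577, 413 and 333 CPM in the controls and 209, 208 and 364 CPM after ABS. ABS replicates 1 and 2 were below every control, and ABS replicate 3 was above control replicate 3. The mean went from 441 ± 124 to 260 ± 89.9 CPM, a log2 difference of -0.76 ± 0.22 (SE, edgeR adjusted p = 0.178). It was -1.25 in replicates 1 and 2 and 0.13 in the replicate 3 libraries. Without ABS replicate 3 the difference was -1.08 (adjusted p = 0.00919), and without control replicate 3 it was -0.93 (adjusted p = 0.0187). Without control replicate 1 it was -0.52 (edgeR adjusted p = 0.688). *H19* passed in 6 of the 14 alternatives and not in DESeq2 (adjusted p = 0.520). *MRPL23*, a mitochondrial ribosomal protein gene and the nearest coding neighbour, differed by -0.37 (adjusted p = 0.337).

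Both replicate 3 libraries lay outside the range of the other 4 for 51 of the 189 RNAs, above for 35 and below for 16. That is 27.0% of the RNAs, beside 28.8% of all tested genes. *AFAP1-AS1*, for example, had 185 and 174 CPM in the replicate 3 libraries and between 141 and 148 CPM in the others. *SOX21-AS1*, named after its values were seen, had 18.9, 20.8 and 12.9 CPM in the controls and 13.4, 13.4 and 12.3 CPM after ABS (log2 -0.43, edgeR adjusted p = 0.382). The control of replicate 3 was already as low as the ABS libraries, and without it the difference passed (adjusted p = 0.0171). *SOX21-AS1* passed in 2 of the 14 alternatives. Its neighbour *SOX21*, which starts 317 bp away in the opposite direction, had 35.7, 36.4 and 20.7 CPM in the controls and 17.1, 18.4 and 20.8 CPM after ABS (log2 -0.72, adjusted p = 0.115). The *SOX21* difference was -1.02 in replicates 1 and 2 and 0.0026 in the replicate 3 libraries. It passed in 1 of the 6 fits with 1 library left out, where its edgeR adjusted p ran from 0.000342 to 0.574. In replicates 1 and 2 alone, 20 of the 189 RNAs passed (9 higher, 11 lower), 10.6% beside 13.2% of the tested genes. With a term for the replicate 3 libraries, 4 passed, 2.12% beside 3.38%.

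The count of RNAs that passed moved with the setting, as did that over all genes. Without control replicate 3, 6 of the 189 passed, 3.17% beside 3.1% of the genes tested, and without ABS replicate 3, 3 passed, 1.59% beside 1.94%. DESeq2 called 3 of the 189, 1.59% beside 1.7%. With no filter on low counts edgeR called 6, 3.17% beside 1.64% of 24957 genes: *H19*, *LINC00511*, *AL365181.3*, *NKILA*, *BAIAP2-DT* and *LINC01269*. Those 24957 include low-count genes that the main filter removes, whereas the 189 all averaged at least 4 CPM, so these shares are not of like genes. The adjusted p of *H19* was 5.48e-18 in that edgeR fit and 0.178 in the main one, although its difference turned in the replicate 3 libraries. *LINC00511* passed in each of these fits, and *H19*, *AL365181.3* and *NKILA* were the others with the replicate 3 term.

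*BAIAP2-DT* and *AC015712.2*, also named after their values were seen, were past 1.5-fold with overlapping groups. *BAIAP2-DT* had 6.67, 11.6 and 10.0 CPM in the controls and 5.81, 3.67 and 7.85 CPM after ABS (log2 -0.70, edgeR adjusted p = 0.371), and *BAIAP2*, whose start is 241 bp away, differed by 0.11. *AC015712.2* had 4.04, 4.37 and 6.25 CPM in the controls and 6.86, 5.51 and 10.2 CPM after ABS (log2 0.62, adjusted p = 0.409). In *BAIAP2-DT* ABS replicate 3 was above control replicate 1, and in *AC015712.2* ABS replicate 2 was below control replicate 3.

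Of the 13 nuclear architecture and chromatin RNAs listed, 4 were among the 189, and none passed the test. The list included *NORAD*, described above as cytoplasmic. The median log2 difference of the 4 was 0.18, beside a median of -0.00 over all tested genes. All 4 were positive, as were 92 of the 189 RNAs. *NORAD*, which sequesters Pumilio proteins after DNA damage, had 432, 465 and 461 CPM in the controls and 517, 511 and 465 CPM after ABS (log2 0.14, edgeR adjusted p = 0.573). The groups were apart, but ABS replicate 3 exceeded the highest control by less than the rounding shown. *NEAT1*, the scaffold of paraspeckles, had 25.3, 38.1 and 36.2 CPM in the controls and 41.3, 33.4 and 40.9 CPM after ABS (log2 0.22, adjusted p = 0.690). *MALAT1*, a nuclear speckle RNA, had 26.1, 26.4 and 40.3 CPM in the controls and 40.5, 21.7 and 45.8 CPM after ABS (log2 0.22, adjusted p = 0.837). The lowest and the highest *MALAT1* values were both in ABS libraries. *MALAT1* and the long form of *NEAT1* end without a classical poly(A) tail, so their levels in libraries selected for poly(A) are not their whole levels. *HOTAIRM1*, an RNA first described in myeloid cells, had 8.73 ± 0.864 CPM in the controls and 9.36 ± 0.499 CPM after ABS (log2 0.10, adjusted p = 0.892).

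Of 30 listed snoRNA host genes, 16 were among the 189. None passed, 7 were positive and 9 negative, and the median was -0.02 in a range from -0.25 to 0.15. *GAS5*, which is also known as a decoy of the glucocorticoid receptor, had 103, 110 and 93.7 CPM in the controls and 98.7, 101 and 93.8 CPM after ABS (log2 -0.06, edgeR adjusted p = 0.882). *SNHG16* had 55.4 ± 2.99 and 55.0 ± 4.19 CPM, and *SNHG15* 45.5 ± 2.96 and 45.9 ± 3.80 CPM. *DANCR*, a suppressor of differentiation, had 56.2, 52.5 and 49.7 CPM in the controls and 47.2, 49.5 and 45.2 CPM after ABS (log2 -0.16, adjusted p = 0.592). Its groups were apart by a small step. *SNHG7*, named after its values were seen as the lowest of the list, differed by -0.25 (adjusted p = 0.460). In the GENCODE release 29 annotation, 17 of the 189 RNAs contain 39 snoRNA genes on their strand; those 17 had a median of -0.01, with 8 positive and 9 negative.

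By the RefSeq microRNA set used here, hairpins lie within 7 of the 189 RNAs, 8 hairpins in all. That set placed none in *PVT1* or *MIR22HG*, which are among the listed microRNA hosts, so these counts may be incomplete. The mature sequences of the best known hosts are given, with the seed (bases 2 to 8, which pairs with target RNAs) in capitals; the microRNAs themselves were not measured.
hsa-miR-675-5p (host H19): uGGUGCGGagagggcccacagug
hsa-miR-675-3p (host H19): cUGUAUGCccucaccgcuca
hsa-miR-15a-5p (host DLEU2): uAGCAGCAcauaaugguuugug
hsa-miR-16-5p (host DLEU2): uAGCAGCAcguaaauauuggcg
hsa-miR-4435 (hosts MIR4435-2HG and CYTOR): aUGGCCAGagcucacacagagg

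The 2 *DLEU2* microRNAs share the seed AGCAGCA, and *MIR4435-2HG* and *CYTOR* carry the same mature microRNA at 2 places on chromosome 2. Since these hosts are near-identical copies in part and the treatment of multiply mapped reads is not given in the sources used here, their separate counts are uncertain. *MIR4435-2HG* had 28.0 ± 3.18 CPM in the controls and 25.9 ± 1.02 CPM after ABS (log2 -0.11, edgeR adjusted p = 0.802), and *CYTOR* 21.2 ± 1.65 and 21.7 ± 1.81 CPM (log2 0.03, adjusted p = 0.965). *DLEU2*, from a region deleted in leukemia and named after its values were seen, had 13.2 ± 1.46 and 13.7 ± 3.03 CPM (log2 0.06, adjusted p = 0.956). Of 27 listed microRNA hosts, 6 were among the 189, none passed, and their median was 0.04. *H19* had the most negative value of that list and *MIR22HG*, named after its values were seen, the most positive, at 0.26 (adjusted p = 0.683).

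Of 24 listed stress-responsive RNAs, 8 were among the 189. None passed, 5 were positive and 3 negative, with a median of 0.01 in a range from -0.64 (*NKILA*) to 0.26 (*MIR22HG*). *ZFAS1*, a snoRNA host antisense to the start of *ZNFX1*, had 40.9, 43.0 and 34.8 CPM in the controls and 41.5, 38.0 and 39.6 CPM after ABS (log2 0.01, edgeR adjusted p = 0.993). Its values were interleaved. *ZFAS1* shares 46.9% of its exonic bases with exons of other genes.

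Of 43 listed RNAs described in tumors of the gut, 15 were among the 189. *LINC00511* rose and the other 14 did not pass, with 7 positive, 8 negative and a median of -0.03. *AFAP1-AS1*, known for loss of methylation and high levels in Barrett's esophagus and esophageal adenocarcinoma, was among the most abundant at 157 ± 24.6 CPM in the controls and 157 ± 15.2 CPM after ABS. *CASC19*, an RNA of the region upstream of *MYC*, had 141, 139 and 187 CPM in the controls and 159, 165 and 160 CPM after ABS (log2 0.05, edgeR adjusted p = 0.931). *UCA1*, first described in urothelial carcinoma, had 93.2 ± 2.97 and 91.4 ± 3.98 CPM (log2 -0.03, adjusted p = 0.949). *PVT1*, the neighbour of *MYC*, had 12.4, 14.7 and 14.1 CPM in the controls and 14.3, 16.3 and 12.7 CPM after ABS (log2 0.07, adjusted p = 0.926), and *MYC* itself had 415 ± 11.8 and 433 ± 28.6 CPM (log2 0.06, adjusted p = 0.855).

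Many of the RNAs lie close to a protein-coding gene. The nearest one, by the distance between starts, was within 1 kb for 69 of the 189 (36.5%), beside 22.8% of the 5249 other genes of these annotations with counts and 6.96% of the 9448 without counts. The median distance was 6481 bp, and the 189 RNAs had 182 distinct neighbours. 63 RNAs overlapped their neighbour in antisense, 51 were head to head with it, 51 lay on the same strand without overlap, 17 overlapped it on the same strand and 7 were tail to tail. Within 1 kb, 36 were antisense overlapping and 25 head to head.

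Among the 161 pairs whose neighbour was also tested, 88 (54.7%) had log2 fold changes of the same sign. Pearson's r across the pairs was 0.22 and Spearman's rho 0.17, over genes of the same 6 libraries, which are not independent replicates. The same sign was seen in 27 of 58 antisense overlapping pairs, 21 of 42 head to head pairs, 25 of 40 on the same strand, 10 of 14 overlapping on the same strand and 5 of 7 tail to tail. In no pair did both genes pass. The neighbour was the higher of the pair in CPM per kb in 110 of the 161, with a median ratio of 2.17 to the RNA. The levels per kb of RNA and neighbour were almost unrelated across pairs (rho 0.05). Neighbours too low for the count filter are left out of these pairs, and the RNAs were chosen by level. These levels thus describe a selected set and were not tested.

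**Figure D5:**
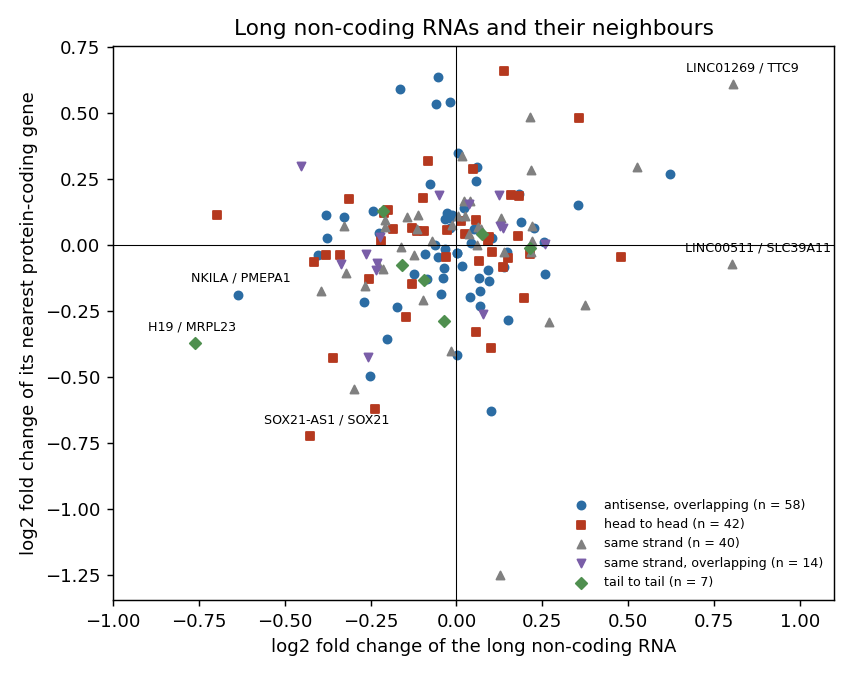
Log2 fold change (ABS against control) of each long non-coding RNA and of its nearest protein-coding gene in 161 pairs, by orientation. The points spread around 0 in all quadrants, and *LINC01269* with *TTC9* lies at the upper right, while *LINC00511* with *SLC39A11* lies to the right near 0 on the vertical axis.

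112 of the 189 RNAs overlap the body of a protein-coding gene, and 120 share exonic bases with another annotated gene. The shared part had a median of 3.96% and exceeded 25% for 27 RNAs. Its highest value was 74.8% for *ABALON*, named after its values were seen, which lies antisense to the apoptosis regulator *BCL2L1*. *LINC00511*, the 1 RNA that rose, is outside the bodies of protein-coding genes. Among the 915 tested genes of the same annotations below 4 CPM, 1 passed: *AP002478.1*, named after its values were seen, an antisense RNA at chr18:3653410-3656282. It had 0.128, 0.0455 and 0.165 CPM in the controls, 8 counts in all and near the level of 3 counts a library, and 1.63 ± 0.860 CPM after ABS (SD, n = 3), 117 counts in all. It reached the count filter only through the ABS libraries, so no fold is given, and its adjusted p of 0.0243 (edgeR) carries that limit. It passed in 2 of the 6 fits with 1 library left out.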

How the data were processed

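The authors deposited raw read counts per gene for 6 polyadenylated RNA libraries of OE33 cells. Per the submitters' processing notes, reads were processed with HISAT2 2.0.5 and featureCounts 1.5.0-p3, and the builds named are hg38 and GRCh38. The strand setting, the treatment of multiply mapped reads and the annotation release are not given in the sources used here. All 58735 gene identifiers had the same coordinates in GENCODE release 29, which supplied exons, overlaps and neighbours.

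From the deposited counts, R 4.3.3 with edgeR 4.0.16 fitted all genes that passed filterByExpr (minimum count 10, minimum total 15, 13768 genes) with TMM scaling and group as the only term. The quasi-likelihood test was used, with Benjamini-Hochberg adjustment over all tested genes and a threshold of 0.05. Levels are TMM-scaled CPM, fold changes are log2, ABS against control, and the SE is the absolute log2 fold change divided by the square root of F. The biological coefficient of variation was 11.3%. The p-values measure the spread between 3 libraries a group. The fit was also run on simulated counts, with the outcome not given here. Those counts were drawn without a replicate effect, so that run does not bear on the replicate 3 libraries. Alternatives were no TMM scaling, no filter, DESeq2 1.42.0, limma-voom (limma 3.58.1), a replicate block, a term for the replicate 3 libraries, replicates 1 and 2 alone, a test against a fold of 1.2 and each library left out.

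The 189 RNAs and the lists were chosen with earlier results of these data known. The RNAs named were every RNA past the threshold, the 10 highest per kb in the controls and up to 4 of each list by level. Also named were the 5 largest differences each way among RNAs whose groups do not overlap, *LINC00511* with *SOX9*, and those nearest the minimum level. Nearest coding genes are given for some of the RNAs, together with genes around *LINC00511*. Other RNAs are marked as named after their values were seen. Promoter and microRNA sequences are from RefSeq (GRCh38.p14). The promoter of the nearest protein-coding genes was not used here.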

Additional observations from a re-analysis of the deposited data

How the results depend on the processing

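*LINC00511* passed in the main analysis and in all 14 alternatives, 12 with edgeR and the others with DESeq2 and limma-voom, with log2 fold changes between 0.76 and 0.87. The number of the 189 RNAs that passed, 1 in the main analysis, was 6 with no filter on low counts (2 higher, 4 lower), 3 with DESeq2 (2 lower), 4 with the replicate block (3 lower), 4 with a term for the replicate 3 libraries (3 lower), and 20 with replicates 1 and 2 alone (9 higher, 11 lower). Leaving out 1 library gave between 1 and 6 RNAs that passed, between 1 and 3 higher and between 0 and 3 lower. The 6 passed without control replicate 3 (*H19*, *LINC00511*, *AL365181.3*, *SOX21-AS1*, *AC245041.2*, *LINC01269*), and 3 passed without ABS replicate 3 (*H19*, *LINC00511*, *NKILA*). *AC245041.2*, named after its values were seen, has a near-identical copy, so its count is uncertain.

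Over all genes, 60 passed in the main analysis, 35 without TMM scaling, 409 with no filter, 226 with DESeq2, 350 with the replicate block, 465 with the replicate 3 term, 1813 with replicates 1 and 2 alone and 14 against a fold of 1.2, and between 12 and 438 with 1 library left out. The cause was not tested. Same-numbered libraries deviated from their group means with correlations of 0.04, 0.03 and 0.17. The labels give no pairing, so the replicate number was not taken as a pairing in the main analysis. With 3 libraries a group, such correlations cannot exclude a pairing, and the replicate block is the alternative that allows for it. A minimum of 2 CPM would have chosen 354 RNAs and a minimum of 8 CPM 93, levels added after the data were seen.

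The sign reversed in at least 1 alternative for 13 of the 43 RNAs followed through every alternative (those named with values or with an unadjusted p under 0.05), and with 1 library left out for 87 of all 189. None of these passed in the main analysis. Without TMM scaling *AFAP1-AS1* was at -0.0085 and *ZFAS1* at -0.0037. With replicates 1 and 2 alone *AC125257.1* was at -0.052, *SNHG16* at 0.045, *SNHG15* at -0.0075, *ZFAS1* at -0.077 and *AC099850.3* at -0.016. With 1 library left out, the values ranged from -0.078 to 0.14 for *AFAP1-AS1*, -0.089 to 0.075 for *AC125257.1*, -0.061 to 0.050 for *SNHG16*, -0.059 to 0.054 for *SNHG15*, -0.081 to 0.070 for *ZFAS1*, -0.023 to 0.20 for *CASC19*, -0.051 to 0.13 for *LRRC75A-AS1*, -0.057 to 0.0053 for *UCA1*, -0.019 to 0.16 for *LINC00973*, -0.031 to 0.098 for *CYTOR*, -0.025 to 0.16 for *PVT1* and -0.13 to 0.18 for *DLEU2*. With 3 libraries a group, the standard error of the log2 fold change had a median of 0.17 over the 189 RNAs, which limits the size of change that could be called.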
